A study of Mus musculus with 32 samples.

Results

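The genes described here encode the calcium sensor calmodulin (Calm2, Calm3), its calmodulin-binding partners neurogranin (Nrgn) and GAP-43 (Gap43), and the calmodulin-dependent phosphatase calcineurin (Ppp3ca, Ppp3cb, Ppp3r1). They were chosen by symbol, as 7 of the 55573 genes of the deposited count table. All 7 passed the filter on low counts, which asked for an average of 10 or more per fitted library, and all 7 were tested in every comparison. In WT neurons without stimulation, Gap43, Nrgn and Calm3 RNA were 1.89-fold, 1.67-fold and 1.65-fold higher in neurites than in soma. Calm2 RNA, which codes for the same protein as Calm3, was at 1.02-fold (95% interval 0.818 to 1.27). The RNA of the regulatory subunit of calcineurin, Ppp3r1, was at 0.768 of its soma level in neurites, a difference under the 1.5-fold threshold used here.

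Calmodulin is a small protein that changes shape when it binds calcium and then binds and switches many enzymes, among them calcineurin and the CaM kinases. Several genes of a mammalian genome encode an identical calmodulin protein and differ in their untranslated regions. Neurogranin, found in the dendrites and spines of forebrain neurons, and GAP-43, found in growing axons and presynaptic terminals, hold calmodulin at the membrane through a short IQ motif when calcium is low and release it when calcium rises. Calcineurin is a dimer of a catalytic A subunit, here Ppp3ca or Ppp3cb, and a calcium-binding B subunit, Ppp3r1. It dephosphorylates NFAT and CRTC transcription regulators and synaptic proteins, and it is needed for long-term depression in the hippocampus.

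The study asked which RNAs reach the neurites of hippocampal neurons, and how depolarization and loss of the m6A methyltransferase Mettl3 change this. Neurons of newborn pups, pooled over a litter and over both sexes, were grown for 15 days on membranes with pores, and RNA was taken from above the membrane (soma) and below it (neurites). WT neurons came from C57BL/6 mice and Mettl3 KO neurons, labelled Mettl3-/-, from Mettl3Flox/Flox mice. The neurons of both genotypes received an AAV with Cre at day 7 (50000 vector genomes per cell), and the hSyn promoter drives Cre in neurons but not in glia. All of them, the untreated Ctrl groups included, were silenced for 16 h from day 14 with the sodium channel blocker tetrodotoxin (1 µM) and the NMDA receptor blocker D-AP5 (50 µM). The KCl groups were then depolarized with 55 mM KCl for 2 h. The 8 groups held 2 RNA-seq libraries each, 16 in all, from 50 ng of total RNA per library. The duplicates came from different litters, and Ctrl and KCl neurons came from the same litter, but the labels do not say which libraries share one, so KCl was tested against Ctrl without pairing. Line and genotype cannot be told apart between WT and KO, and the soma fraction can also hold neurites that did not cross the membrane.

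The libraries held 33789183 to 71394235 counts. Mettl3 stood at 13.2 to 17.3 CPM (counts scaled to a common library size) in the 4 WT soma libraries against 6.11 to 11.6 in the 4 KO soma libraries, and at 8.90 to 12.5 against 3.88 to 7.90 in neurites. In the paper, Cre removed exon 4 of Mettl3, and METTL3 protein was almost completely lost. Counts over the whole gene can keep reads of its other exons, so they do not measure this loss. KO duplicates differed far more than WT duplicates: the biological coefficient of variation was 0.505 over the KO libraries and 0.151 over the WT libraries. KCl-treated KO insert 1 stood apart. Its summed markers of the oligodendrocyte lineage (6 genes) reached 2986 CPM in soma and 6444 in neurites, against 33.4 to 95.6 CPM in the 8 WT libraries. The summed neuron markers (8 genes) were at 1139 and 685 CPM there, against 3399 to 4741 CPM in WT. The 2 untreated KO soma libraries also differed from each other, as the values of Ppp3ca show. No marker of neurons, astrocytes, microglia or the oligodendrocyte lineage was at 0 in any library.

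All 7 genes are protein coding. In GRCm38, Calm2 lies on the minus strand at chr17:87433412-87446935, Calm3 on the minus strand at chr7:16915379-16924114, Nrgn on the minus strand at chr9:37544492-37552904 and Gap43 on the minus strand at chr16:42248442-42340651. Ppp3ca lies on the plus strand at chr3:136670124-136937727, Ppp3cb on the minus strand at chr14:20499364-20546573 and Ppp3r1 on the plus strand at chr11:17159263-17200375. Calm2 shares sequence with other places in the genome: 28.6% of the 50-base windows of its exons occur elsewhere without a mismatch, against 1.53% for Calm3, 0.328% for Ppp3cb, 0.034% for Ppp3r1 and 0% for Nrgn, Gap43 and Ppp3ca. The authors counted reads that map to several places, so the level of Calm2 is less certain than that of the other 6. Exons of Ppp3r1 share 462 bases (14.3% of its exon length) with exons of Wdr92 on the same strand, where reads of the 2 genes cannot be told apart.

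DART-seq marks m6A by an APOBEC1-YTH fusion protein that converts a cytosine next to the methylated adenosine to uracil (C2U). The authors' list holds 15 sites in 6 of the 7 genes, out of 18231 sites in 5643 RNAs, and no row for Calm2. Of the 15 sites, 7 lie in a 3′UTR, 6 in coding sequence and 2 in a 5′UTR, by GENCODE M21, against 32.2%, 59.7% and 4.05% of all listed sites. The most edited site of each gene is printed below, with the other strongly edited site of Ppp3cb, to show where the strongest editing of each RNA lies. Each line gives 21 bases of GRCm38 in the direction of the RNA, with the 3 bases that end at the converted cytosine in capitals, GAC or AAC.
Calm3 coding site: gaccagctGACtgaggaacag
Nrgn 3′UTR site: ctaacctcAACctcctaaacc
Gap43 coding site: gtaaagaaGACcccgaggctg
Ppp3ca 3′UTR site: agaaaccaGACcattccttta
Ppp3cb 3′UTR site, first: tagaattaGACatttttcaac
Ppp3cb 3′UTR site, second: cagtgactGACctgtactgat
Ppp3r1 3′UTR site: acaagggaAACcatgtgaaat

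The windows stand at chr7:16919642-16919662 (minus, exon 2 of 6 of Calm3), chr9:37544825-37544845 (minus, exon 4 of 4 of Nrgn) and chr16:42249046-42249066 (minus, exon 3 of 3 of Gap43). That of Ppp3ca is at chr3:136937105-136937125 (plus, exon 13 of 13). Those of Ppp3cb are at chr14:20501133-20501153 and chr14:20500257-20500277 (minus, exon 14 of 14), and that of Ppp3r1 is at chr11:17199248-17199268 (plus, exon 6 of 6). The site of Gap43 lies 24 bases before its last coding base, and those of Ppp3cb lie 344 and 1220 bases past it. Among the 15 sites the bases were GAC at 9 and AAC at 6. GAC made up 53.7% and AAC 46.3% of all listed sites, and the authors' rule kept no other bases.

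Ppp3cb carried the most editing. Its first 3′UTR site was converted in 31.7% of reads, as the authors' mean, which is higher than at 99.8% of all listed sites, and its second in 14.7%, higher than at 97% of them. Its other sites, 1 in coding sequence and 1 in the 3′UTR, stood at 2.54% and 4.67%. The 11 sites of the other 5 genes were between 1.02% and 4.63%, and 10 of them lay below the median of 3.54% over all sites. The deposited values are means, so the spread between replicates and the depth at a site are unknown, and no test was made.

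The authors describe the score of an RNA as the sum of the converted fractions over its sites. Ppp3cb scored 0.499 in WT, above 97.4% of the RNAs of the table. Ppp3ca scored 0.0808, Ppp3r1 0.0689, Calm3 0.0497, Gap43 0.0320 and Nrgn 0.0226, all under the median of 0.103. The listed site values add up to 53.7% for Ppp3cb, 9.35% for Ppp3ca and 7.86% for Ppp3r1, more than the scores of these RNAs. For Calm3 (4.97%), Gap43 (3.20%) and Nrgn (2.26%) they match the scores. The reason for the difference is not known. In Mettl3 KO the scores were lower for all 6 RNAs, at 0.278 for Ppp3cb and 0.00710 for Calm3. The sites were kept for a lower value in KO, so this is no separate finding. The score of Ppp3cb in WT was 1.80 times that in KO, that of Gap43 1.79 times and that of Calm3 7.0 times, with a median of 3.10 over all RNAs.

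In the paper, the editing averages of soma and of neurites each hold Ctrl and KCl samples. Between compartments, the score of Calm3 was 0.0380 in soma and 0.0622 in neurites. Scores of Ppp3ca were 0.0679 and 0.0988, and those of Ppp3cb 0.459 and 0.539. Gap43 was at 0.0310 and 0.0328 and Ppp3r1 at 0.0690 and 0.0689. Nrgn, whose score rests on 1 site, was at 0.0277 in soma and 0.0183 in neurites. Over all RNAs of the table, 68.8% had a higher score in neurites and the median ratio of neurites to soma was 1.30. The ratios of the 6 RNAs ran from 0.662 (Nrgn) to 1.64 (Calm3), on both sides of that median.

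**Figure D1:**
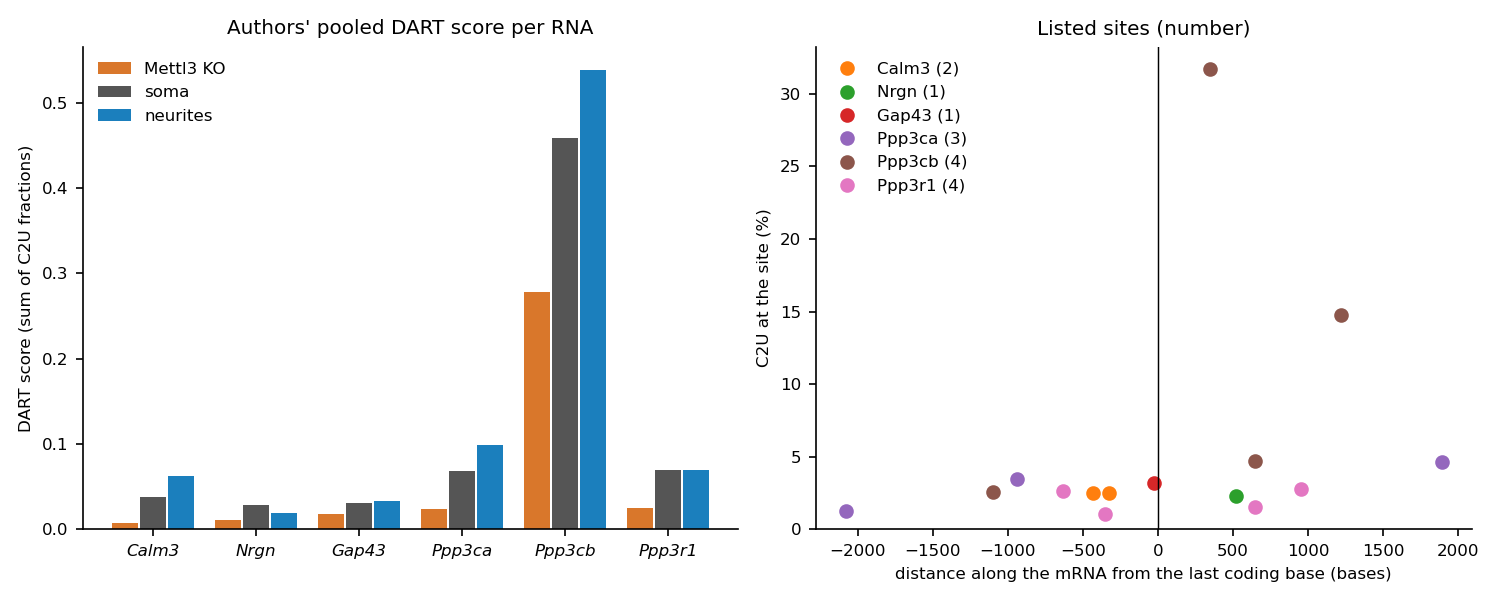
The left panel plots the authors' pooled DART-seq score of each RNA in Mettl3 KO (orange), WT soma (grey) and WT neurites (blue). The values are means over Ctrl and KCl libraries, with no error bars. The right panel plots the C2U percentage of the 15 listed sites against their distance along the mRNA from the last coding base (0), and the 2 highest points, 31.7% and 14.7%, both belong to Ppp3cb.

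Levels of different genes are set side by side only per exon length, as CPM per kilobase. In untreated WT soma the order was Calm2 (1011 and 998 in the 2 libraries), Calm3 (645 and 689), Gap43 (261 and 234), Ppp3r1 (112 and 126), Ppp3ca (67.04 and 61.8), Nrgn (33.7 and 34.2) and Ppp3cb (6.35 and 5.49). No neighbours in this order overlapped. In untreated WT neurites Calm3 (1105 and 1197) and Calm2 (1029.8 and 1109) overlapped at the top. Gap43 (474 and 503), Ppp3r1 (93.7 and 97.5), Ppp3ca (77.2 and 83.0), Nrgn (58.0 and 60.5) and Ppp3cb (7.59 and 7.66) followed without overlap. Calm2 was at rank 18 and Calm3 at rank 34 of 23200 genes in WT soma by this measure, and Ppp3cb, the minor catalytic subunit here, at rank 7230. These lengths add up the exons of all transcripts of a gene, so they understate a gene of which one short transcript is used.

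**Figure D2:**
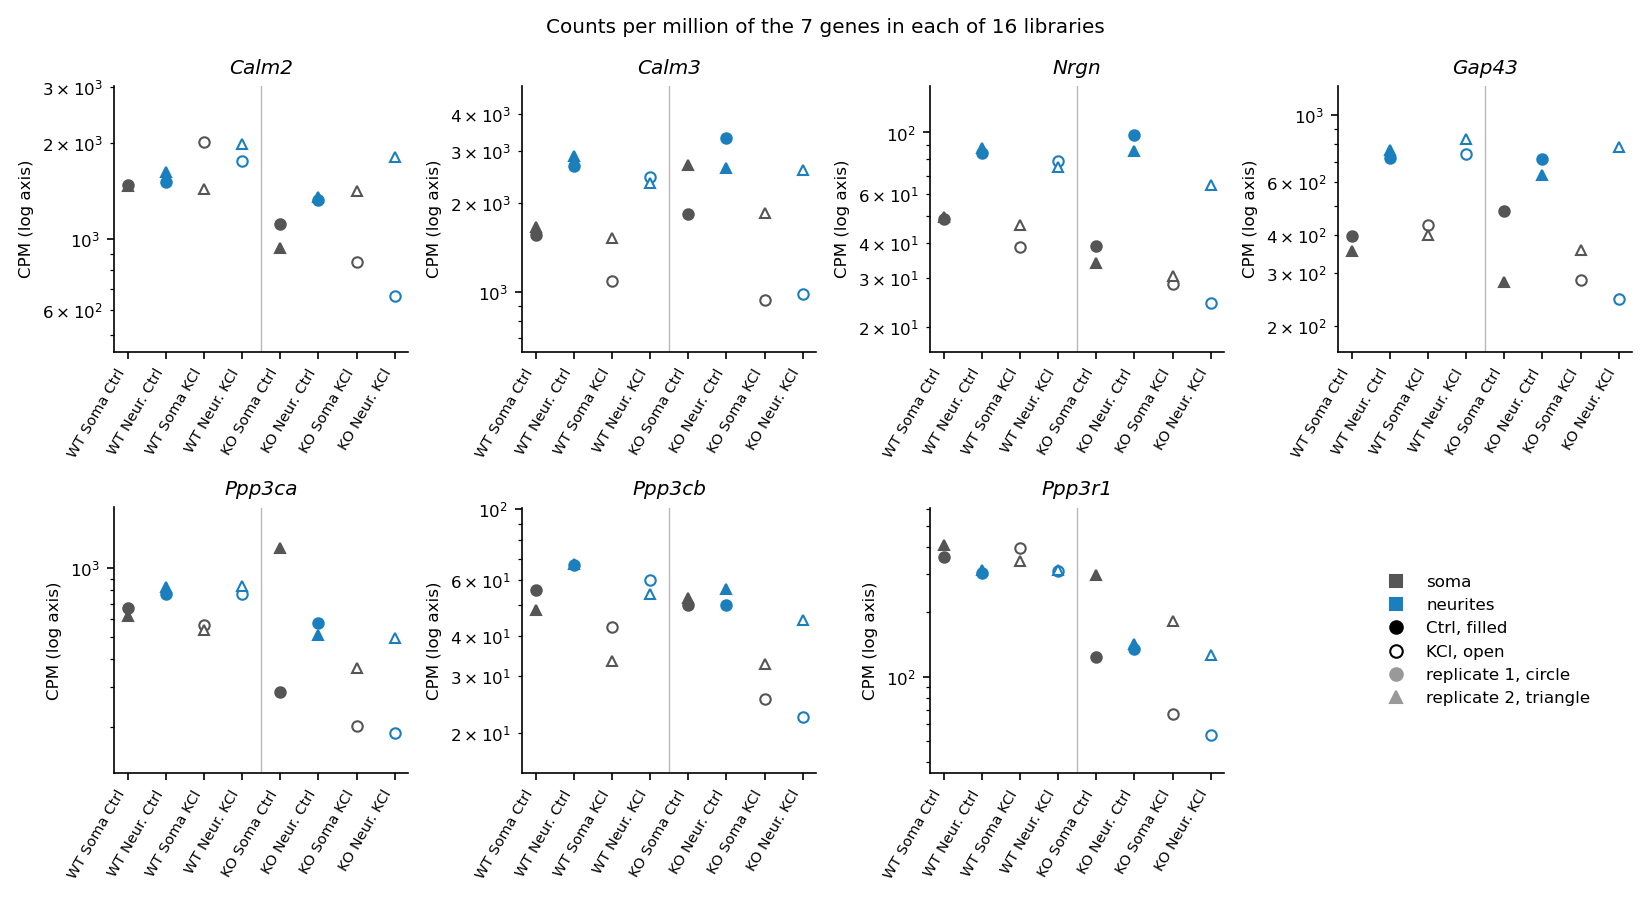
Each panel plots the CPM of 1 gene (log axis) in the 16 libraries by group; grey marks soma and blue neurites, filled points Ctrl and open points KCl, circles replicate 1 and triangles replicate 2. Gap43, Nrgn and Calm3 have both WT neurite points above both WT soma points in Ctrl and in KCl, and the KO points spread more than the WT points.

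Neurites were compared with soma in WT neurons to ask which of these RNAs are enriched there. In bulk samples, fewer cells of a type and less RNA per cell cannot be told apart. The threshold for a call was 1.5-fold in either direction with an adjusted p of 0.05 or less from edgeR. Of the 7 genes, 3 were called higher in untreated WT neurites and 0 lower, where 13.5% of all 23200 genes tested were called (8.99% higher and 4.52% lower). The median log2 difference was 0.30 over the 7 genes and -0.10 over all genes. Both neurite libraries lay above both soma libraries for 6 of the 7 genes and below them for Ppp3r1, and 64.9% of all genes had no overlap in one direction or the other.

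Calm2 stood at 1483 and 1464 CPM in untreated WT soma and at 1511 and 1627 CPM in neurites. The neurite libraries were just above the soma libraries. The log2 difference was 0.03 ± 0.14 (SE, n = 2 per group; edgeR adjusted p = 0.916), and a 1.5-fold enrichment lies outside its interval.

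Calm3, the other calmodulin gene, stood at 1563 and 1669 CPM in soma and at 2677 and 2900 CPM in neurites. Both neurite libraries were well above both soma libraries. The log2 difference was 0.72 ± 0.15 (SE, n = 2 per group; edgeR adjusted p = 0.00986). The call was lost when WT neurite Ctrl replicate 2 was left out (adjusted p = 0.0661) or WT soma Ctrl replicate 1 (adjusted p = 0.0598). Per exon base, Calm3 had 0.638 and 0.690 of the counts of Calm2 in untreated WT soma, and 1.07 and 1.08 times those counts in neurites. This ratio is taken within a library, so the scaling between libraries does not enter it.

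Nrgn stood at 49.02 and 49.7 CPM in soma and at 84.3 and 87.9 CPM in neurites. Its log2 difference was 0.74 ± 0.12 (SE, n = 2 per group; edgeR adjusted p = 0.00335). Neurogranin RNA was thus higher in neurites by more than the spread between duplicates, and the call held with each library left out in turn.

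Gap43 stood at 397 and 356 CPM in soma and at 721 and 766 CPM in neurites, with no overlap. The log2 difference of 0.92 ± 0.11 (SE, n = 2 per group; edgeR adjusted p = 0.000574) was the largest of the 7 genes.

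The calcineurin genes differed less between the compartments. Ppp3ca, the catalytic Aα subunit, stood at 669 and 616 CPM in soma and at 770.5 and 828 CPM in neurites. Its neurite libraries were above its soma libraries, with a log2 difference of 0.25 ± 0.10 that was not called (SE, n = 2 per group; edgeR adjusted p = 0.119). Ppp3cb, the Aβ subunit, stood at 55.9 and 48.4 CPM in soma and at 66.8 and 67.5 CPM in neurites, with 0.30 ± 0.14 (SE, n = 2 per group; edgeR adjusted p = 0.151).

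Ppp3r1, the calcium-binding B subunit, went the other way. It stood at 361 and 407 CPM in soma and at 302 and 315 CPM in neurites, all below the soma libraries. Its log2 difference was -0.38 ± 0.11 (SE, n = 2 per group; edgeR adjusted p = 0.0388), which passed the p threshold and did not reach 1.5-fold. The adjusted p also passed in DESeq2 (0.048) and, in edgeR, without a filter (0.036), with the stricter filter (0.020) and with crossed replicate numbers (0.019). In edgeR it did not pass with RLE scaling (0.057), a replicate block (0.064), the 4 libraries alone (0.058) or all 16 libraries (0.94). The pass was also lost with any 1 of the 4 libraries left out, where the log2 difference ranged from -0.44 to -0.21. The counts per exon base of Ppp3ca were 0.600 and 0.489 of those of Ppp3r1 in untreated WT soma and 0.824 and 0.851 in neurites. With KCl these ratios were 0.461 and 0.502 in soma and 0.803 and 0.860 in neurites. The 4 neurite values were above the 4 soma values.

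**Figure D3:**
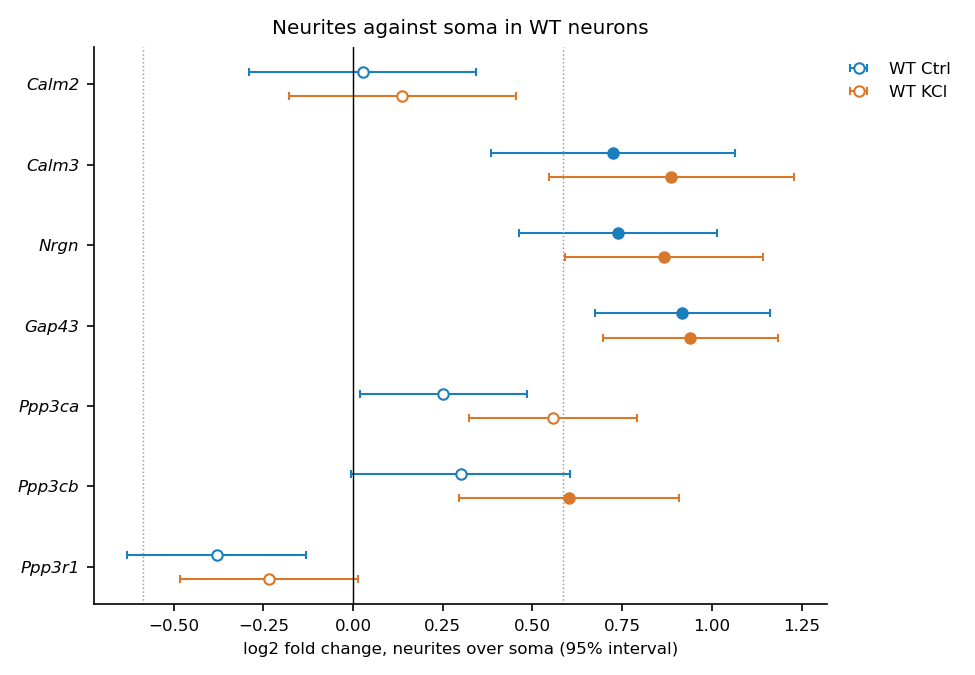
The log2 fold change of neurites over soma in WT neurons, with its 95% interval from the edgeR fit, is plotted for each gene without stimulation (blue) and with KCl (orange); filled points were called, and dotted lines mark 1.5-fold in either direction. Calm3, Nrgn and Gap43 are called in both, Ppp3cb only with KCl, and Ppp3r1 lies left of 0 in both.

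With KCl, 4 of the 7 genes were called higher in WT neurites and 0 lower, where 9.54% of all genes were called (6.84% higher and 2.7% lower). The median log2 difference was 0.60 over the 7 genes and -0.03 over all genes. Calm3 stood at 1093 and 1523 CPM in soma and at 2455 and 2342 CPM in neurites, with a log2 difference of 0.89 ± 0.15 (SE, n = 2 per group; edgeR adjusted p = 0.00520). The call of Calm3 was lost without WT neurite KCl replicate 1 (adjusted p = 0.0574).

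Nrgn stood at 38.8 and 46.5 CPM in KCl-treated soma and at 79.0 and 75.1 CPM in neurites, a log2 difference of 0.87 ± 0.12 (SE, n = 2 per group; edgeR adjusted p = 0.00202). Gap43 stood at 431 and 399.6 CPM in soma and at 744 and 832 CPM in neurites, a log2 difference of 0.94 ± 0.11 (SE, n = 2 per group; edgeR adjusted p = 0.000891). For both calmodulin-binding proteins, all KCl-treated neurite libraries were above all KCl-treated soma libraries. Of all genes, 26.2% lay above and 29.5% below in this way.

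Ppp3cb stood at 42.9 and 33.4 CPM in KCl-treated soma and at 59.9 and 54.2 CPM in neurites. Its log2 difference of 0.60 ± 0.14 (SE, n = 2 per group; edgeR adjusted p = 0.0187) was just past 1.5-fold, and the call did not hold in DESeq2 (0.57), with RLE scaling (0.57) or with a stricter filter on low counts (0.58). It was also lost without WT neurite KCl replicate 1, WT neurite KCl replicate 2 or WT soma KCl replicate 2. Ppp3ca stood at 565 and 536 CPM in soma and at 767 and 835 CPM in neurites. Its log2 difference of 0.56 ± 0.11 passed the p threshold and stayed just under 1.5-fold (SE, n = 2 per group; edgeR adjusted p = 0.00775).

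Calm2 overlapped between the KCl-treated compartments, with 2011 and 1432 CPM in soma and 1753 and 1988 CPM in neurites. Its log2 difference was 0.14 ± 0.14 (SE, n = 2 per group; edgeR adjusted p = 0.575). Ppp3r1 stood at 396 and 345 CPM in soma and at 309 and 314 CPM in neurites, again below the soma libraries, with -0.23 ± 0.11 (SE, n = 2 per group; edgeR adjusted p = 0.201).

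All of these calls rest on the spread of the 8 WT libraries. With all 16 libraries in 1 fit, whose shared spread includes the KO duplicates, edgeR called 0 of the 7 genes and 0 of all genes in either WT comparison, with log2 differences of 0.82 for Calm3, 0.83 for Nrgn and 1.01 for Gap43 without stimulation. Astrocyte markers moved with the compartment as well: the sum of 6 genes was 752 to 766 CPM in untreated WT soma and 1491 to 2451 CPM in neurites, and 918 to 991 against 1666 to 1981 CPM with KCl. Without stimulation, 3 of the 6 astrocyte markers were called higher. The sums were also larger in untreated neurites for the oligodendrocyte lineage (84.0 to 95.6 against 42.4 to 47.9 CPM, 1 of 6 called higher), for fibroblasts and vessels (24.1 to 64.7 against 8.34 to 12.2 CPM, 3 of 5 tested called higher) and for microglia (17.0 to 18.6 against 10.3 to 11.4 CPM, 1 of 5 called higher). The summed neuron markers were 3399 to 3525 CPM in untreated WT soma and 4449 to 4741 CPM in neurites, with 1 of 8 called higher and a median log2 difference of -0.0085. Their part in these results was not tested.

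**Figure D4:**
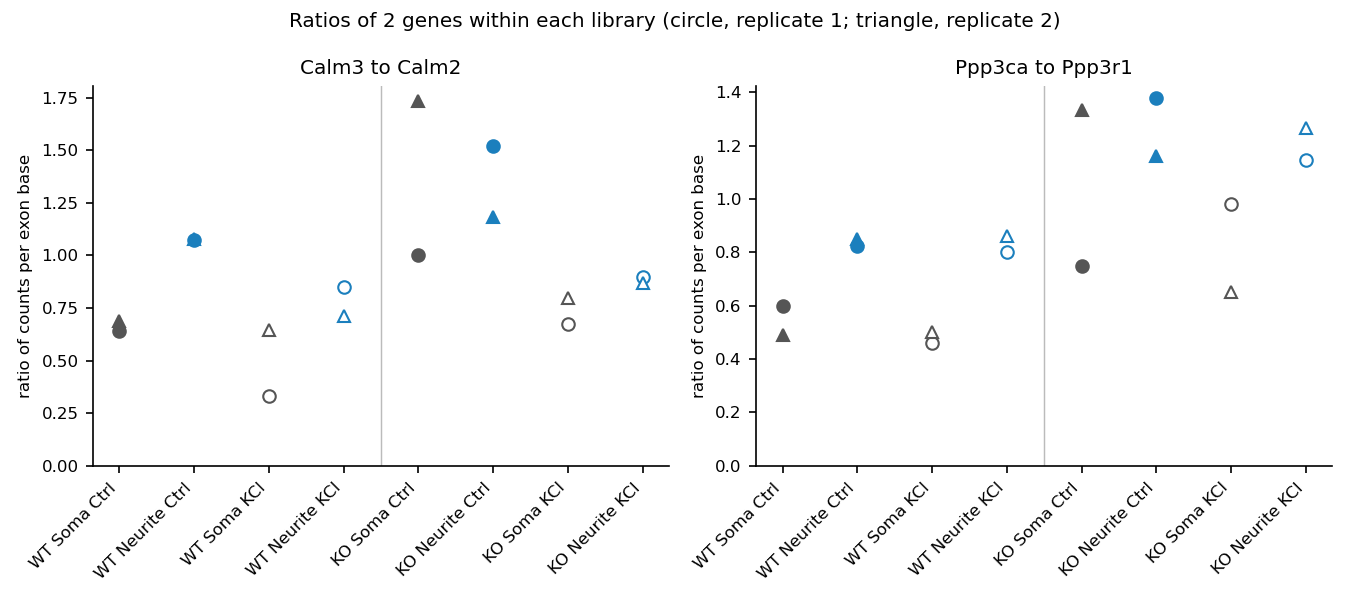
The ratio of counts per exon base of 2 genes within a library is plotted for each of the 16 libraries by group, for Calm3 to Calm2 (left) and Ppp3ca to Ppp3r1 (right); grey marks soma, blue neurites, open points KCl. In WT, every Ppp3ca to Ppp3r1 point of neurites, 0.803 to 0.860, lies above every point of soma, 0.461 to 0.600. In KO the points of neurites, 1.145 to 1.378, overlap those of soma, 0.6507 to 1.335.

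The depolarization of silenced neurons was used to ask how activity changes these RNAs. A gene was called for KCl at 2-fold. Of the 7 genes, 0 were called in WT soma, where edgeR called 6.81% of all genes (3.8% higher and 3.01% lower), and 0 in WT neurites, where it called 4.94% (3.24% higher and 1.7% lower). DESeq2 also called 0 of the 7 genes in either compartment. At an unadjusted p under 0.05 there was 1 of the 7 in soma (Ppp3cb) and 1 in neurites (Calm2), where 26.5% and 22.6% of all genes passed.

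Ppp3cb had the largest difference with KCl in soma: 55.9 and 48.4 CPM in Ctrl against 42.9 and 33.4 CPM with KCl, without overlap. The log2 difference was -0.45 ± 0.14 (SE, n = 2 per group; edgeR adjusted p = 0.0537), and its interval of -0.76 to -0.15 leaves out a 2-fold change. Between Ctrl and KCl in WT soma, 57.1% of all genes had no overlap. Calm3 was at -0.30 ± 0.15, Ppp3ca at -0.22 ± 0.10, Nrgn at -0.21 ± 0.12, Ppp3r1 at -0.05 ± 0.11, Gap43 at 0.14 ± 0.11 and Calm2 at 0.22 ± 0.14 (log2, SE, n = 2 per group). All 7 intervals in soma lay between -0.76 and 0.54, inside 2-fold.

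In WT neurites Calm2 stood at 1511 and 1627 CPM in Ctrl and at 1753 and 1988 CPM with KCl, all higher, with a log2 difference of 0.33 ± 0.14 (SE, n = 2 per group; edgeR adjusted p = 0.200). The other 6 genes were between -0.15 (Ppp3cb) and 0.16 (Gap43) on the log2 scale. All 7 intervals in neurites lay between -0.48 and 0.65. Both KCl-treated neurite libraries of Calm2 were above both Ctrl libraries, as for 21.5% of all genes.

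The change in neurite enrichment with KCl was positive for all 7 genes, from 0.02 (Gap43) to 0.31 (Ppp3ca) on the log2 scale, with a median of 0.15 beside 0.05 over all genes. The direction did not hold for all of them under other settings: Gap43 was at -0.045 in DESeq2 and with RLE scaling and at -0.089 with all 16 libraries. With 1 insert left out, Calm2 reached -0.17, Calm3 -0.11, Nrgn -0.053 and Gap43 -0.12. Under the study's rule of an unadjusted p of at most 0.05 and 1.5-fold, 0 of the 7 genes were called, and 3.36% of all genes were called, 2% higher and 1.35% lower (0% at an adjusted p). Ppp3ca was at 0.31 ± 0.19 and Ppp3cb at 0.30 ± 0.19 (log2, SE, n = 2 inserts per group; edgeR unadjusted p = 0.136 for each).

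**Figure D5:**
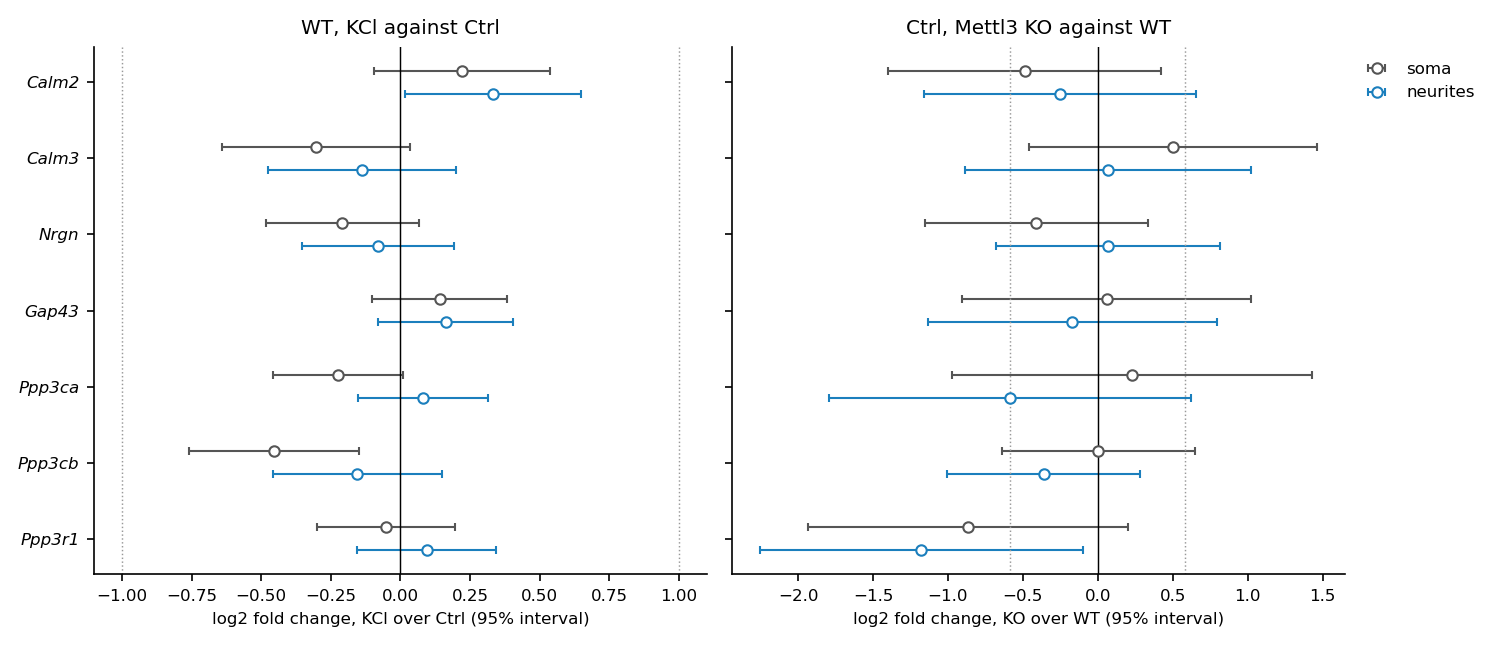
Log2 fold changes with 95% intervals from the edgeR fits are plotted for KCl over Ctrl in WT (left, dotted lines at 2-fold) and for Mettl3 KO over WT without stimulation (right, dotted lines at 1.5-fold), in soma (grey) and neurites (blue). All points are open because no gene was called, and the intervals of the knockout comparison are wider than those of the KCl comparison.

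The Mettl3 KO was compared with WT to ask whether m6A affects the level of these RNAs. Of the 7 genes, 0 were called in untreated soma, where edgeR called 0.189% of all genes (0.0643% higher and 0.124% lower), and 0 in untreated neurites, where it called 0.171% (0.06% higher and 0.111% lower). Counts were simulated from the means and spread of all 16 libraries, with changes put into untreated KO soma. With 200 genes changed, 0% of those changed 2-fold and 34.5% of those changed 4-fold were recovered. Other numbers of changed genes were not simulated. A missing call in the soma comparison thus does not show that a gene is unchanged. Of the 7 intervals in soma, only that of Ppp3cb (0.641 to 1.56-fold) left out a 2-fold change in both directions. DESeq2 called 0 of the 7 genes too.

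Ppp3r1 came nearest to a call. It stood at 135 and 142 CPM in KO neurites against 302 and 315 CPM in WT neurites, with no overlap, as for 47.8% of all genes. In soma it stood at 123 and 298 CPM in KO against 361 and 407 CPM in WT, also without overlap, as for 48.8% of all genes. The log2 differences were -1.18 ± 0.49 in neurites (edgeR adjusted p = 0.631) and -0.87 ± 0.49 in soma (edgeR adjusted p = 0.655; SE, n = 2 per group). With the 4 untreated neurite libraries alone it was called, at -1.16 (adjusted p = 0.0411). Cell type markers differed between the genotypes too: the summed neuron markers were 2776 to 3164 CPM in untreated KO neurites and 4449 to 4741 in WT, and 2773 to 3819 CPM in KO soma against 3399 to 3525 in WT. The summed astrocyte markers were 2266 to 5734 CPM in KO neurites and 1491 to 2451 in WT, and 1434 to 1721 CPM in KO soma against 752 to 766 in WT. Their part in the differences between KO and WT was not tested.

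Ppp3ca stood at 286 and 1231 CPM in the 2 untreated KO soma libraries, against 669 and 616 CPM in WT. The KO libraries lay on both sides of WT, and the log2 difference was 0.23 ± 0.55 (SE, n = 2 per group; edgeR adjusted p = 0.936). It turned to -1.12 without KO soma Ctrl replicate 2 and was 0.96 without replicate 1. In KO neurites Ppp3ca was at 573 and 511 CPM against 770.5 and 828 CPM in WT, lower in both.

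Calm3 stood at 1843 and 2695 CPM in KO soma against 1563 and 1669 CPM in WT, higher in both libraries, and at 3329 and 2637 CPM in KO neurites, overlapping WT. Calm2 stood at 1115 and 940 CPM in KO soma against 1483 and 1464 CPM in WT, and at 1327 and 1351 CPM in KO neurites against 1511 and 1627 CPM. It was lower in KO in both compartments, by a log2 difference of -0.49 ± 0.42 in soma and -0.25 ± 0.42 in neurites (SE, n = 2 per group), within the spread of the fit. Of all genes, 22.7% had both KO soma libraries above both WT soma libraries and 26.1% below. In neurites these shares were 24.1% and 23.7%. Nrgn (38.9 and 33.9 CPM in KO soma, 98.0 and 85.8 CPM in KO neurites), Gap43 (482 and 279, 715 and 631) and Ppp3cb (50.1 and 52.6, 50.0 and 56.1) had log2 differences between -0.41 and 0.07 in either compartment.

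Within the KO, neurites and soma were compared in the 8 KO libraries, where edgeR called 0% of all genes in Ctrl and in KCl (1214 and 146 genes at an unadjusted p under 0.05, and 8 and 0 genes in DESeq2). The largest difference in Ctrl was that of Nrgn, 38.9 and 33.9 CPM in soma against 98.0 and 85.8 CPM in neurites, a log2 difference of 1.27 ± 0.48 (SE, n = 2 per group; edgeR adjusted p = 0.873, unadjusted p = 0.0291). The KO and WT values of Nrgn thus had the same direction. Gap43 was also above its soma libraries in both untreated KO neurite libraries (715 and 631 against 482 and 279 CPM), and Calm2 in both as well (1327 and 1351 against 1115 and 940 CPM). In this comparison 23.4% of all genes had both neurite libraries above both soma libraries. In counts simulated with the spread of the 8 KO libraries and 200 changed genes, 0% were recovered at 2-fold and at 4-fold. Other numbers of changed genes were not simulated. A missing call here thus does not show that a gene is unchanged.

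The effect of KCl was compared in the same way in KO, where edgeR called 0% of all genes in soma and in neurites (1483 and 1469 at an unadjusted p under 0.05, and 270 and 251 in DESeq2) and 0 of the 7 genes. In KCl-treated KO insert 1, the one rich in glial transcripts, all 7 genes had their lowest neurite level: Calm2 at 665, Calm3 at 986, Nrgn at 24.4, Gap43 at 246, Ppp3ca at 189, Ppp3cb at 22.4 and Ppp3r1 at 53.3 CPM. In insert 2 they were at 1805, 2586, 64.5, 787, 493, 45.1 and 126 CPM. Without insert 1, the log2 differences of Calm2 and Gap43 with KCl in KO neurites turned from -0.11 and -0.37 to 0.53 and 0.33. The part of the glial transcripts in these levels was not tested.

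The change in neurite enrichment between KO and WT was not called for any of the 7 genes under the study's rule, which called 4.29% of all genes, 2.96% higher and 1.33% lower (0% at an adjusted p). The values ran from -0.50 ± 0.59 (Ppp3ca) to 0.49 ± 0.41 (Nrgn) on the log2 scale (SE, n = 2 inserts per group). When KO Ctrl replicate 1 was left out, Calm3 (-0.76), Ppp3ca (-1.53) and Ppp3r1 (-0.70) were called lower, in a fit that called 3123 genes higher and 1856 lower of 23372. Without KO Ctrl replicate 2, Ppp3ca was at 0.60 and Ppp3r1 at 0.36, in the opposite direction.

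For each gene, the 2 genes most like it were those with the smallest root mean square difference of centred log2 CPM over the 8 WT libraries, among 7288 protein-coding genes that averaged 1000 counts or more. For Nrgn these were Rab6b (0.0426) and Ctnnd2 (0.0509), and for Calm3 they were Rab6b (0.0583) and Nrgn (0.0744). Calm3 and Nrgn thus had nearly the same profile over the WT libraries. Calm3 and Calm2 differed by 0.507, near the median of 0.505 between Calm3 and all 7288 genes. For Calm2 they were Eif5 (0.0665) and Gng3 (0.0725), for Gap43 Bola2 (0.0646) and Ndufa1 (0.0674), for Ppp3ca Camta1 (0.0422) and Taok1 (0.0535), for Ppp3cb Bax (0.0574) and Arhgef25 (0.0794), and for Ppp3r1 Dhx32 (0.0311) and Atp6v1d (0.0405). The 2 catalytic subunits differed by 0.157 from each other and by 0.369 (Ppp3ca) and 0.428 (Ppp3cb) from Ppp3r1. Their median differences from all 7288 genes were 0.322 (Ppp3ca) and 0.374 (Ppp3cb). These likenesses are descriptions over 8 libraries that share their preparation.

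Of 58 further genes of calmodulin and calcineurin signalling, 57 were tested. In untreated WT neurites against soma, 10 were called higher and 1 lower, and their median log2 difference was 0.14, where 8.99% of all genes were called higher and 4.52% lower. Among the calcium sensors and buffers, 2 of 7 were higher, Ncs1 (2.14 ± 0.17), which encodes neuronal calcium sensor 1, and its relative Hpcal4 (1.71 ± 0.17). Among calcineurin regulators and anchors, 1 of 8 was higher, the inhibitor Rcan3 (1.16 ± 0.13).

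Of 13 calcineurin substrates, 3 were higher in untreated WT neurites: the CREB coactivator Crtc1 (1.56 ± 0.32), the phosphatase inhibitor Ppp1r1a (1.27 ± 0.13) and the transcription factor Mef2d (0.65 ± 0.12). Of 22 calmodulin-dependent enzymes and pumps, Mylk (1.24 ± 0.23), a myosin light chain kinase, and the adenylyl cyclase Adcy1 (1.20 ± 0.15) were higher, and the calcium pump Atp2b2 was lower (-0.71 ± 0.11). Of 5 small proteins with an IQ or effector domain, Pcp4, which binds calmodulin through an IQ motif as Nrgn does, was higher (0.71 ± 0.19). These are log2 differences with SE, n = 2 per group, all called by edgeR with adjusted p between 0.000116 (Ncs1) and 0.0285 (Pcp4).

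With KCl, 11 of the 57 genes were called higher in WT neurites and 1 lower, with a median log2 difference of 0.16, beside 6.84% and 2.7% of all genes. The KCl comparison called 0 of the 57 higher and 1 lower in WT soma, and 0 in WT neurites. The gene that was lower was Nfatc3 (-1.14 ± 0.22; SE, n = 2 per group; edgeR adjusted p = 0.00613), an NFAT transcription factor that calcineurin dephosphorylates. In KO against WT, 0 of the 57 were called in either compartment.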

How the data were processed

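RNA-seq of soma and neurites of cultured mouse hippocampal neurons was analysed from the deposited table of counts per gene. The authors aligned paired reads to mm10 with STAR 2.7.7a and counted fragments on exons with featureCounts 2.0.1, without a strand option and with reads that map to several places. Per the labels, DART-seq libraries were made in parallel. From these the authors gave scores per RNA, numbers of sites and a C2U fraction per site, all pooled over libraries. The deposited DESeq2 tables (mean signal scaled by size factors, log2 fold changes and p-values of the authors' comparisons) were used only to pair gene IDs with symbols and biotypes.

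Counts were fitted in edgeR 4.0.16 (R 4.3.3) with TMM scaling, a quasi-likelihood F-test (two-sided) and Benjamini-Hochberg adjustment over all genes that averaged 10 or more counts per fitted library. The 37 mitochondrially encoded genes were left out. Comparisons within a genotype used its 8 libraries, because the duplicates of KO spread more than those of WT, and KO against WT used all 16. CPM were scaled by TMM over 16 libraries, so their ratios differ slightly from the fitted fold changes. Changes in neurite enrichment had 1 term per insert, taken from the replicate number, which the labels do not tie to an insert. Thresholds came from the study's methods; Xtail was not used. In counts simulated for the untreated WT comparison of neurites with soma, 80% of 200 genes changed 2-fold and 100% of those changed 4-fold were recovered. Counts per library (33789183 to 71394235) set the counting precision; intervals are those of the fits.

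Alternatives were DESeq2 1.42.0, RLE scaling, other filters, other libraries, a replicate block, and each library left out. Removal of KCl-treated KO insert 1 and crossed replicate numbers were chosen after the values were seen. The genes, lists and tests were chosen with earlier results of these data known. Named genes are the 7 genes, Mettl3, the 2 most similar genes of each, and listed genes called in untreated WT neurites against soma or in KCl against Ctrl in WT soma (at most 6 per role). One listed gene is counted but not reported by name here. Gene places, regions and sequences came from GRCm38 with GENCODE M21, read with Python 3.11.15. Marker lists covered neurons, astrocytes, microglia, the oligodendrocyte lineage, and fibroblasts and vessels.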

Additional observations from a re-analysis of the deposited data

How the results depend on the processing

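The calls of neurites against soma in WT depended most on the libraries that shared the fit. With all 16 libraries, 0 of the 7 genes were called without stimulation (3 in the 8 WT libraries) and 0 with KCl (4 in the 8 WT libraries), with wider errors from the KO duplicates in the shared spread. Over all genes, the number called fell from 3133 to 0 and from 2213 to 0. In turn, leaving out single libraries gave 2 to 3 calls without stimulation and 2 to 5 with KCl, where 2 (Nrgn and Gap43) came without WT neurite KCl replicate 1. With the 4 untreated neurite libraries alone, KO against WT called 1 gene, Ppp3r1, where all 16 libraries called 0. Leaving out each insert in turn gave 0 to 3 calls for the change in neurite enrichment in KO, with 3 without KO Ctrl replicate 1. The cause of these moves was not tested. Of 973 values of single genes under an alternative, 895 kept their direction and side of the threshold, 17 lost a call, 5 gained one and 56 turned in direction.

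All turned values had been under their threshold. On the log2 scale, Ppp3r1 with KCl in WT soma was at 0.025 with all 16 libraries. Ppp3cb in untreated KO neurites against soma was at 0.016 in DESeq2 and with RLE scaling, 0.029 with all 16 libraries and 0.034 with 4. Ppp3cb in KO soma against WT was at -0.022 without a filter, -0.018 with the stricter filter, -0.0081 with 4 libraries and -0.026 without KCl-treated KO insert 1. Without that insert, Calm2 and Gap43 with KCl in KO neurites were at 0.53 and 0.33. The change of Gap43 enrichment with KCl was at -0.045 in DESeq2 and with RLE scaling and at -0.089 with all 16 libraries.

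With 1 library left out, the log2 difference of Calm2 in WT neurites against soma ranged from -0.061 to 0.11 without stimulation and from -0.073 to 0.41 with KCl. With KCl in WT soma, Calm2 ranged from -0.0095 to 0.43 and Ppp3r1 from -0.12 to 0.12, and in WT neurites Ppp3ca ranged from -0.0041 to 0.17. In untreated KO neurites against soma, Ppp3ca ranged from -1.12 to 0.84, Ppp3cb from -0.15 to 0.21 and Ppp3r1 from -1.04 to 0.087. With KCl, that comparison in KO turned for all 7 genes: Calm2 from -0.81 to 0.69, Calm3 from -0.56 to 0.90, Nrgn from -0.32 to 1.14, Gap43 from -0.42 to 1.31, Ppp3ca from -0.64 to 0.81, Ppp3cb from -0.43 to 0.64 and Ppp3r1 from -1.28 to 0.36. For KCl in KO soma, Calm2 ranged from -0.28 to 0.50 and Gap43 from -0.60 to 0.17, and in KO neurites from -1.14 to 0.51 and -1.58 to 0.31. For KO against WT, Gap43 (-0.41 to 0.40), Ppp3ca (-1.12 to 0.96) and Ppp3cb (-0.082 to 0.11) turned in soma and Calm3 (-0.063 to 0.22) in neurites. For the change in enrichment with KCl, the ranges were -0.17 to 0.44 for Calm2, -0.11 to 0.50 for Calm3, -0.053 to 0.34 for Nrgn and -0.12 to 0.17 for Gap43. For that in KO they were -0.50 to 0.25 for Gap43, -1.53 to 0.60 for Ppp3ca and -0.70 to 0.36 for Ppp3r1.

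Only the change in neurite enrichment pairs soma and neurites by replicate number, as the study's methods do; without that replicate block it called 0 of the 7 genes as well, with no turn in direction. Elsewhere replicate numbers were taken as names: the deviations of same-numbered soma and neurite libraries correlated at -0.14 and 0.02 in WT (Ctrl and KCl) and at 0.07 and 0.90 in KO. The replicate block changed no call of the 7 genes, and with it Ppp3ca in KO soma against WT turned to -0.013. With crossed numbers in the untreated WT libraries, the block called 3 of the 7 genes.

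Counts over all genes moved by more than 1.5 times under some alternatives. The lowest and highest were 332 and 2046 for KCl in WT soma (1581 reported), 254 and 1761 in WT neurites (1147), 0 and 2650 for KO against WT in soma (44), 5 and 353 in neurites (40), 285 and 1627 for the change in enrichment with KCl (779) and 277 and 4979 for that in KO (1001). Within KO, where 0 were called, the highest were 1029 and 2 for neurites against soma (Ctrl and KCl) and 780 and 742 for KCl (soma and neurites).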
